A study of Mus musculus with 83 samples.

Results

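This account follows 8 secreted signaling genes that brown preadipocytes and other stromal cells can make: the chemokines Cxcl12, Cxcl1, Cxcl5, Ccl2 and Ccl7, the myeloid growth factor Csf1, and the cytokines Il6 and Lif. They were picked by name, and rows were taken by symbol from the culture tables and by RefSeq transcript from the tissue table. Of the 8 genes, 6 had a row among the 11144 genes of the culture tables, and 8 had a value among the 29082 transcripts of the tissue table. Cxcl1 and Cxcl5 had no culture row, and a gene without a row cannot be taken as low. The tissue transcripts matched 22463 genes, so a missing culture row was common among genes of any kind.

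The series studied enhancer activation during brown adipogenesis, and 5 of its 83 samples, all RNA libraries, are used here. The cultured cells came from the interscapular brown fat of newborn C57BL/6J mice, carried floxed Pparg alleles at every time, and had been immortalized by a retrovirus expressing SV40 large T antigen, so they are a proliferation-competent line and not primary cells. They were sampled as proliferating cells at day -3, as confluent cells at day 0, as immature adipocytes at day 2 and as mature adipocytes at day 7. Differentiation was started at day 0 with a cocktail of dexamethasone, indomethacin, IBMX, T3 and insulin, and from day 2 the medium held insulin and T3. The tissue library was interscapular brown fat of C57BL/6J mice aged 16 weeks, and the labels do not say how many animals it pooled. Each time and the tissue had 1 library, so the differences below have no replicate check and no p-value.

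Chemokines are small proteins that draw cells along a gradient through receptors on the cell surface. CXCL12 acts on CXCR4 and is cleared by ACKR3, CCL2 and CCL7 draw monocytes mainly through CCR2, and CXCL1 and CXCL5 draw neutrophils through CXCR2. CSF1, together with IL-34, keeps macrophages alive through CSF1R. IL-6 and LIF belong to a family that signals through gp130, encoded by Il6st, to JAK kinases and STAT3. In fat, such factors are known as signals from stromal precursors to resident macrophages and other leukocytes, many of their genes are targets of NF-κB, and glucocorticoids repress several of them.

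Culture values are FPKM, fragments scaled for transcript length and library size, and tissue values are RPKM, the same for reads. The median over all culture genes lay between 12.2 and 13.4 FPKM in the 4 libraries. The culture depth is unknown, and each culture gene reached at least 1.00125 FPKM in some library. In the tissue library a single read on a transcript of 1 kb came to about 0.187 RPKM, estimated from its low values, and 3 reads, the least taken as detected, to 0.561 RPKM. Differences are of log2(FPKM + 1), later minus earlier, a scale that understates differences of genes at low levels. A gene counted as higher or lower at a difference of at least 1 on that scale, which is 2-fold, if its larger value was at least 1 FPKM. A gene that reached 1 FPKM at a single time of a comparison could be called only as higher at that time. All 7 adipocyte markers were higher past this rule at day 2 against day 0 and at day 7 against day -3. Adipoq, the hormone adiponectin, had the largest difference of them at day 7 against day -3. It was at 0.234, 0.260, 142 and 590 FPKM on days -3, 0, 2 and 7. At days -3 and 0, before induction, Fabp4 was at 37.6 and 106 FPKM and Pparg at 16.8 and 7.46, both past the rule. The Pparg call was lost with a pseudocount of 5 in place of 1, and with FPKM rescaled to a common total.

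RefSeq promoters of build GRCm38.p6 were held for 5 of the 8 genes (Cxcl12, Cxcl1, Csf1, Il6 and Lif). The 250 bases before the start are shown for the Csf1, Il6 and Lif genes, whose RNA was highest in proliferating cells, and for Cxcl12, whose RNA was highest at day 2. Capitals mark matches to motifs of factors known to act on cytokine genes.
Csf1 (chr3:107760470-107760719, minus strand): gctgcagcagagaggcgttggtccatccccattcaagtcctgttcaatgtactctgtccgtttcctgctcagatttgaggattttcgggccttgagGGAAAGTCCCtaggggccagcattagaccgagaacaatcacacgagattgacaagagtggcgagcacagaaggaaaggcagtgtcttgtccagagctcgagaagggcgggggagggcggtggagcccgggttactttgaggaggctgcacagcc
Il6 (chr5:30012864-30013113, plus strand): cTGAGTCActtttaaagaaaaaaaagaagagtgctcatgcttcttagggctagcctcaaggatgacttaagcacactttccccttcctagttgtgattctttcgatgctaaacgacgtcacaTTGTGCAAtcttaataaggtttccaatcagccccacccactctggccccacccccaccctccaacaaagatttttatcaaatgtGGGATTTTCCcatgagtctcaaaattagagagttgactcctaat
Lif (chr11:4257318-4257567, plus strand): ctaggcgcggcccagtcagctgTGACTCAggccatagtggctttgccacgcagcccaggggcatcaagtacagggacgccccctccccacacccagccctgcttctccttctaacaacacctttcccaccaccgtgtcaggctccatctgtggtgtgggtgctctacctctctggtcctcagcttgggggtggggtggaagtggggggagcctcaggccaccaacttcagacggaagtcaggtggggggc
Cxcl12 (chr6:117168285-117168534, plus strand): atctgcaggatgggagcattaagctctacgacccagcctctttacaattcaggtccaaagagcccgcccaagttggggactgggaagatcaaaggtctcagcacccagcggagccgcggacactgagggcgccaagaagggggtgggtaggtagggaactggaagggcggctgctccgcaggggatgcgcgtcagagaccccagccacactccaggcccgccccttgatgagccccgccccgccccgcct
Both strands were searched for the NF-κB consensus, for AP-1 (TGANTCA), for STAT factors (TTCNNNGAA), for the glucocorticoid response element and for the C/EBP consensus, and the sense strand for a TATA box (TATAAA). A looser C/EBP form (TTNNGCAA) was added after the sequences were seen. In Csf1 an NF-κB match lay 154 to 145 bases before the start. Il6 had an AP-1 match 249 to 243 bases before its start, a match to the looser C/EBP form at 128 to 121 bases and an NF-κB match at 44 to 35 bases. Lif had an AP-1 match 228 to 222 bases before its start, and Cxcl12 had no match to any of these letters in this window. In the Cxcl1 promoter, which is not shown, a pair of overlapping NF-κB matches lay 71 to 61 bases before the start. None of the 5 held a STAT, glucocorticoid response element, C/EBP consensus or TATA match. Over 32851 promoters of the same length, the NF-κB consensus was found in 3.90%, AP-1 in 6.75%, STAT in 7.02%, the glucocorticoid response element in 0.387%, the C/EBP consensus in 0.0578%, its looser form in 9.56% and the TATA box in 7.59%. These matches describe letters, and binding was not measured in the files used here. The Cxcl12 window held 64.4% G and C, Lif 63.6%, Csf1 56.4% and Il6 42.8%, against a median of 52.4% over all promoters.

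Csf1, the growth factor of macrophages, was the most abundant of these transcripts in proliferating cells and was far lower already at confluence, before induction. It was at 467, 73.2, 37.1 and 33.3 FPKM on days -3, 0, 2 and 7. Its rank among all culture genes was at the 99.4th percentile at day -3 and at the 77.8th at day 7. Confluent cells differed from proliferating cells by -2.66 on the log2 scale, a ratio of 0.157, and 0.292% of all compared genes had a difference that low or lower. The following step was just inside the 2-fold rule, at -0.96, and days 7 and 2 differed by -0.15. Set end to end, 33.3 FPKM at day 7 against 467 FPKM at day -3 is a difference of -3.77, the lowest among these genes. In bulk RNA, fewer cells expressing a gene and less RNA per cell cannot be told apart.

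Il6 and Lif, both ligands of gp130 receptors, were near the lower limit of the tables at every time. Il6 was at 1.05, 0.409, 0.129 and 0.145 FPKM on days -3, 0, 2 and 7, and its highest value stands close to the smallest maximum of any listed gene. Lif was at 1.59, 0.997, 0.191 and 0.203 FPKM at the same times. Both were highest in proliferating cells, lower at confluence and lowest after induction, with days 2 and 7 alike in level. As plain ratios, day 7 was at 0.139 of day -3 for Il6 and at 0.128 for Lif. On the log2(FPKM + 1) scale these were differences of -0.84 and -1.11, so Lif passed the 2-fold rule and Il6 did not. With a pseudocount of 0.1 the Il6 difference was -2.23, and with a pseudocount of 5 that of Lif was -0.34, so neither call is firm at such levels. Without the depth, no counting error can be given for them.

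Ccl2 and Ccl7, monocyte chemokines that follow each other among the chemokine genes of chromosome 11, were highest in confluent cells. Ccl2 was at 32.0, 80.8, 14.6 and 16.5 FPKM on days -3, 0, 2 and 7. Ccl7 was at 33.9, 47.8, 19.0 and 9.86 FPKM at those times. Both were thus highest at day 0 and lower at day 2, but at day 7 Ccl2 was slightly above its day 2 value while Ccl7 was lower again. Against day -3, day 0 differed by 1.31 for Ccl2, past the 2-fold rule, and by 0.48 for Ccl7, inside it. Between days 2 and 0 the differences were -2.40 for Ccl2 and -1.29 for Ccl7, both past the rule, and 0.840% of all compared genes had a difference as low as that of Ccl2. The level of Ccl2 over that of Ccl7 was 0.944, 1.69, 0.765 and 1.68 at days -3, 0, 2 and 7, so the pair did not keep a fixed ratio. Ccl11, the eosinophil chemokine eotaxin and the next chemokine gene on that chromosome, took another course, at 0.0210, 0.169, 6.43 and 0.413 FPKM.

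Cxcl12, the stromal chemokine that holds CXCR4-bearing cells in their niche, had a different order of levels. It was at 145, 172, 248 and 59.97 FPKM on days -3, 0, 2 and 7. The level at day 2 was at the 99.1st percentile of that library. The first pair of steps differed by 0.24 and 0.53, inside the 2-fold rule, and day 7 differed from day 2 by -2.03, a ratio of 0.242. A difference that low or lower was found for 0.900% of compared genes. From day 0 on, Cxcl12 was the most abundant of the 6 listed genes, with 45.8%, 77.8% and 49.96% of their summed FPKM at days 0, 2 and 7, against 21.3% at day -3, when Csf1 held 68.6%. The summed FPKM of the 6 was 679.9, 375, 319 and 120.04 at days -3, 0, 2 and 7.

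**Figure D1:**
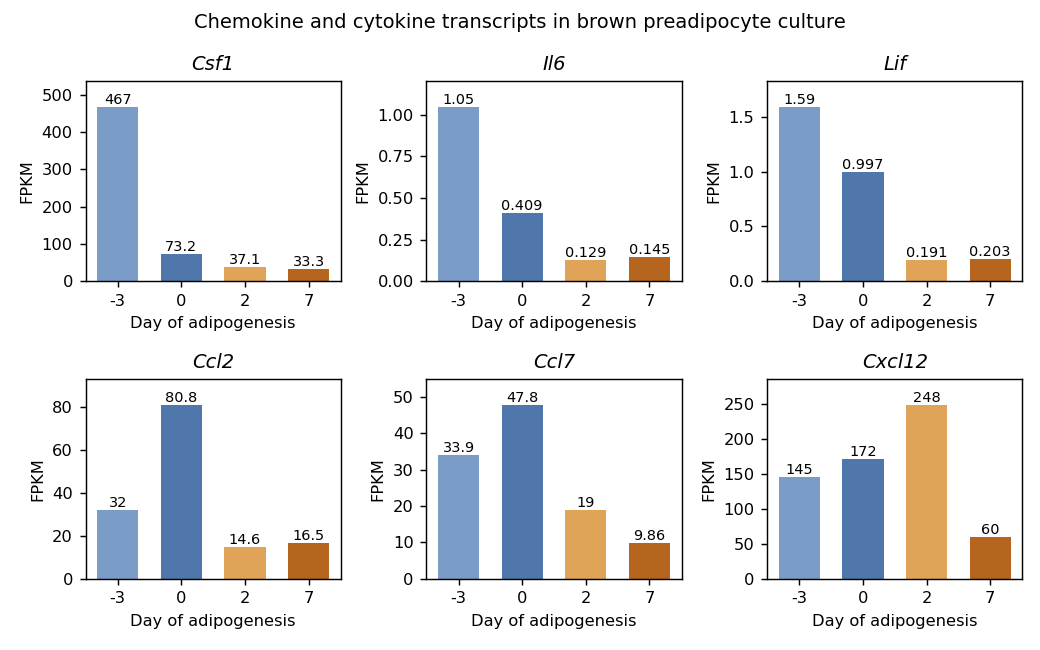
Bars give the deposited FPKM of each listed gene (vertical axes, each from 0 on its own scale) at days -3, 0, 2 and 7 (horizontal axes), with 1 library a day. Csf1, Il6 and Lif are highest at day -3, Ccl2 and Ccl7 at day 0, and Cxcl12 at day 2, at 248 FPKM.

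The genes were chosen with earlier results of these libraries known, so the counts of their highest days describe them and do not test the label of preadipocyte factors. Of the 6 with culture values, 5 had their highest value before induction, 3 at day -3 and 2 at day 0, and 6 were lower at day 7 than at day -3. Cxcl12 was the exception, with its highest value in immature adipocytes. Every listed gene reached 1 FPKM at some time, and Il6 and Lif did so only at day -3. Their highest day and their lower day 7 thus followed from being listed.

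The members' counts were set beside the share of all genes that passed the same rule. Between days 0 and -3, 1 of 6 compared members was higher (Ccl2) and 1 lower (Csf1), where 11.3% of 10602 compared genes were higher and 5.43% lower, 16.8% in all. Between days 2 and 0, 2 of 4 compared members were lower (Ccl2 and Ccl7) and 0 higher, where 10.7% of 10717 genes were lower and 6.18% higher, 16.9% in all. Between days 7 and 2, 1 of 4 was lower (Cxcl12) and 0 higher, where 5.14% of 10666 genes were lower and 9.62% higher, 14.8% in all. Il6 and Lif were below 1 FPKM at each time of these later steps and were not compared there. Between days 7 and -3, 4 of 6 were lower (Csf1, Ccl7, Cxcl12 and Lif) and 0 higher, where 14.7% of 10828 genes were lower and 20.3% higher, 35.0% in all. In both comparisons with day -3, Il6 and Lif passed the filter only through their day -3 values and could not count as higher. The Lif call was lost with a pseudocount of 5, at -0.34. The members' median difference was -0.07, -1.12, -0.52 and -1.18 in these comparisons, in the order given, and the median over all compared genes was 0.06, -0.01, 0.02 and 0.07. Neighboring comparisons share a library, and day 7 against day -3 shares a library with the first and the third.

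**Figure D2:**
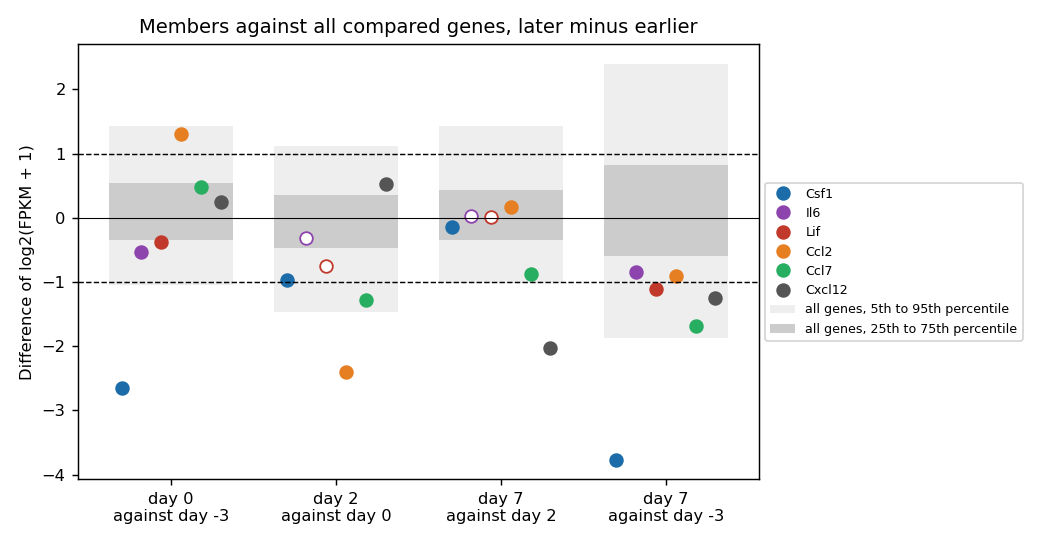
Circles give each gene's difference of log2(FPKM + 1), later minus earlier (vertical axis), in the comparisons named on the horizontal axis, 1 library a time; open circles mark genes below 1 FPKM at both times, which were not compared. Gray boxes give the spread over all compared genes and dashed lines the 2-fold rule: Csf1 at -2.66 and -3.77, Ccl2 at -2.40 and Cxcl12 at -2.03 lie below the 5th percentile of all genes in their comparisons.

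Likeness of course was measured as the Euclidean distance between profiles of log2(FPKM + 1) over the 4 culture libraries, each centered on its own mean. Among the members, Il6 and Lif were closest, at 0.37, followed by Ccl2 and Ccl7 at 0.96, while Cxcl12 and Csf1 were farthest apart at 3.16. Among the 7857 genes that reached 10 FPKM, those nearest to Csf1 were Fam150a (0.17), Dlx2 (0.29) and Unc5b, a netrin receptor (0.36). Nearest to Ccl2 were Fam20a (0.17), Tle6 (0.20) and Samd14 (0.20). Ccl7 was followed by Ripk3, a kinase of necroptosis (0.12), Plscr1 (0.15) and Fam18a (0.16). The nearest to Cxcl12 were Rnd3 (0.32), Pcdh19, a protocadherin (0.33), and Tpst1, which sulfates tyrosines of secreted and surface proteins (0.35). Lif was nearest to Vps29 (0.07), Cpne2 (0.07) and Cep170 (0.09), whose plain ratios are smaller than that of Lif, since a pseudocount of 1 shrinks a gene at its level. With 4 points a profile, such nearness is a description of these libraries, and Il6 spanned less than 2-fold on this scale and was left out.

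Other chemokine genes were looked up in the culture tables. Of 12 other CXC genes, 2 had a row, and 6 of 20 other CC, CX3C and XC genes did. Over all genes, 11144 had a culture row and 22463 a tissue value. At day 0 against day -3, 2 of 2 compared CXC genes were higher, and of 5 compared CC and CX3C genes 2 were higher and 1 lower. Of those called, Cxcl16, Ccl9 and Ccl17 passed the filter only through their higher value and could not be called the other way. Of all compared genes 11.3% were higher and 5.43% lower. With a pseudocount of 5, 1 CXC gene was higher, and of the CC and CX3C genes 1 was higher and 0 lower. Cxcl10, an interferon-induced chemokine of T cells, was at 7.17, 54.7, 12.7 and 5.29 FPKM on days -3, 0, 2 and 7. Ccl5, also known as RANTES, was at 3.56, 20.5, 7.75 and 4.19 FPKM. Like Ccl2 and Ccl7, both were highest in confluent cells, and both were past the 2-fold rule in the first comparison and again, downwards, at day 2 against day 0. Ccl9, a myeloid chemokine, was at 0.964, 6.91, 4.84 and 5.93 FPKM and stayed near its day 0 level. Cxcl16 was at 0.460, 2.39, 2.52 and 2.30 FPKM, and Ccl27a at 1.77, 3.86, 0.559 and 4.13. Cx3cl1, the membrane-bound chemokine fractalkine, was at 13.0, 12.4, 5.88 and 5.29 FPKM, and Ccl17, at 1.69 and 0.335 FPKM at days -3 and 0, was listed at 0 at days 2 and 7. Against all genes, the median difference of the CC and CX3C list was 0.81 at day 0 against day -3, where all genes had 0.06, and -0.97 at day 2 against day 0, where all genes had -0.01.

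Other ligands and the receptors of the IL-6 family were read in the same libraries. Clcf1, a cytokine of the family, was at 41.1, 13.2, 3.89 and 7.20 FPKM on days -3, 0, 2 and 7. It was thus highest in proliferating cells, as Il6 and Lif were, at levels well above theirs, and at day 7 it differed from day -3 by -2.36. Ctf1, cardiotrophin, was at 1.45, 3.29, 0.942 and 2.87 FPKM, and Cntf at 4.65, 2.76, 3.71 and 4.39.

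All 7 receptor genes of the family had a row, and at day 2 against day 0, 2 of 6 compared were higher and 0 lower, with a median difference of 0.92 where all genes had -0.01. Of all compared genes 6.18% were higher and 10.7% lower. Lifr, the LIF receptor, was at 8.79, 14.5, 46.6 and 11.7 FPKM on days -3, 0, 2 and 7. Osmr, the oncostatin M receptor, was at 23.2, 21.1, 47.4 and 16.6 FPKM. Il6st, the shared gp130 subunit, was at 36.1, 51.3, 89.9 and 45.7 FPKM, inside the 2-fold rule at each step. These subunits were highest at day 2. Lif and Il6 were near the lower limit then, and about as low at day 7, when the subunits were lower again. Il6ra, which gives IL-6 its specificity, was at 1.88, 2.63, 5.53 and 8.54 FPKM and so highest at day 7, and Il11ra1 was at 6.83, 23.7, 22.2 and 10.9. At day 7 against day 2, 3 of 6 compared receptors were lower and 0 higher, with a median of -0.995 where all genes had 0.02. Of all compared genes 5.14% were lower and 9.62% higher.

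Of 9 genes of other colony-stimulating and stem cell factors and their receptors, 4 had a row, and Csf1r, the receptor of CSF1, was not among them. Il34, the other CSF1R ligand, was at 1.07, 2.30, 0.311 and 0.686 FPKM on days -3, 0, 2 and 7. Kitl, stem cell factor, was at 1.89, 3.98, 64.1 and 26.0 FPKM, a difference of 3.71 at day 2 against day 0. Csf1 and Kitl, both growth factors for blood-forming or myeloid cells, were thus high at different times. Csf2ra was at 2.18, 5.62, 1.06 and 2.33 FPKM, and Kit at 0.0274, 0.0420, 0.440 and 1.72. At day 2 against day 0, 1 of 3 compared genes of this list was higher and 2 were lower. Of all compared genes 6.18% were higher and 10.7% lower. With a pseudocount of 5, 0 genes of the list were lower.

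**Figure D3:**
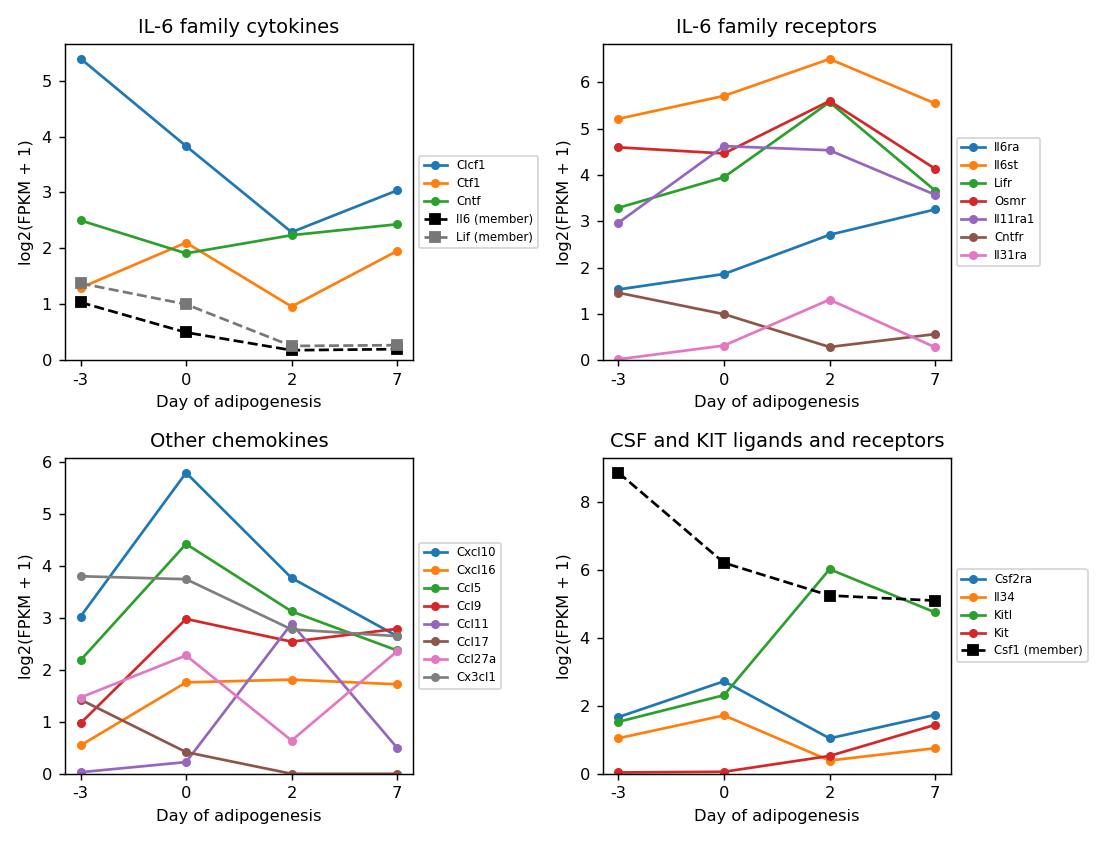
Lines give log2(FPKM + 1) (vertical axes) at days -3, 0, 2 and 7 (horizontal axes, evenly spaced), 1 library a day, for related genes named in the text and others of their lists; dashed lines with squares are Il6, Lif and Csf1. Clcf1 starts at its highest value as Il6 and Lif do, Lifr, Osmr and Il6st are highest at day 2, Cxcl10 and Ccl5 at day 0, and Kitl is at 64.1 FPKM at day 2.

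Genes of the pathways upstream and downstream of these cytokines were counted by the same rule. Of 28 genes of the NF-κB pathway, its upstream receptors and its targets, 26 had a row. At day 0 against day -3, 3 of 26 were higher and 1 lower, at day 2 against day 0 it was 2 and 3 of 26, and at day 7 against day -3 it was 3 and 2 of 25 compared. The list's medians were 0.06, -0.03 and -0.06 in these comparisons, where all genes had 0.06, -0.01 and 0.07. The shares of all genes past the rule are those given above beside the members' counts. Nfkb1 was at 42.0, 40.5, 31.6 and 28.1 FPKM on days -3, 0, 2 and 7, and Rela, the transactivating subunit, at 50.6, 45.3, 35.6 and 46.9. Nfkbia, the inhibitor IκBα, was at 34.2, 25.7, 80.1 and 48.7 FPKM, higher past the rule at day 2 against day 0. Tnip1, which restrains the pathway, was at 8.96, 16.4, 24.7 and 59.97 FPKM, and Ikbke, a kinase of the IKK family, at 2.10, 8.69, 3.66 and 5.10. Vcam1, an adhesion molecule and NF-κB target, was at 32.4, 49.4, 49.2 and 8.24 FPKM, with its lowest value at day 7 as for Cxcl12. Il1r1, the IL-1 receptor, was at 11.8, 21.6, 46.9 and 11.5 FPKM.

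All 12 genes of the JAK and STAT list had a row, and at day 7 against day -3, 4 were higher and 1 lower, with a median of 0.41, where 20.3% of all genes were higher and 14.7% lower, with a median of 0.07. Stat3, which carries the gp130 signal, was at 43.0, 60.2, 64.4 and 59.3 FPKM, and Socs3, its feedback inhibitor, at 11.2, 9.04, 11.2 and 10.4. Both stayed inside the 2-fold rule at each step. Stat5a was at 3.73, 9.28, 19.4 and 45.6 FPKM, Cish at 4.82, 7.58, 4.31 and 15.7, and Socs1 at 4.09, 5.16, 1.85 and 1.05. Of 8 genes of proteins that bind cytokine mRNA to destroy or protect it, 2 were higher and 2 lower at day 7 against day -3, with a median of -0.21 and the same shares over all genes. Zfp36, tristetraprolin, which marks such mRNA for decay, was at 15.2, 7.69, 15.3 and 23.6 FPKM, and its relative Zfp36l1 at 15.4, 46.0, 49.1 and 70.5. Zc3h12a, the RNase regnase-1, was at 2.40, 2.14, 3.69 and 7.15 FPKM. Elavl1, which encodes the stabilizing protein HuR, was at 34.2, 17.5, 21.0 and 14.4 FPKM, and Hnrnpd, which encodes AUF1, at 323, 186, 182 and 121. Of 20 other interleukin and TNF family genes 4 had a row, with Il1rn, the IL-1 receptor antagonist, at 0.118, 0.107, 1.80 and 0.935 FPKM and Il15 at 0.0711, 0.326, 0.376 and 1.95.

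Of 13 leukocyte markers, 5 had a culture row, and their summed level was 6.79, 14.5, 5.13 and 8.21 FPKM on days -3, 0, 2 and 7. None of Ptprc, Adgre1, Lyz2 and Csf1r, which define leukocytes or macrophages, had a row. Lck, a T-cell kinase, was at 1.01, 4.80, 0.473 and 0.881 FPKM on days -3, 0, 2 and 7. Itgam was at 0.0672, 1.04, 0.0255 and 0.0251 FPKM, and Cd74 at 0.519, 3.21, 0.458 and 2.29. The list's sum was thus highest at day 0, the time of the highest Ccl2 and Ccl7, and its part in their levels was not tested. Cd68, a macrophage marker, was at 3.40, 3.32, 3.42 and 4.195 FPKM over the same times. Of 5 endothelial markers Kdr alone had a row, at 1.07, 1.88, 0.105 and 0.0668 FPKM.

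In brown adipose tissue of adult mice, Cxcl12 was the member with the highest level and most of the others were at or near 0. Its 3 RefSeq transcripts were at 12.6, 13.8 and 11.2 RPKM, which share sequence and are not independent. The 3 transcripts of Csf1 were at 1.42, 1.29 and 1.34 RPKM. Ccl7 was at 0.234 RPKM and Il6 at 0.172 RPKM, both below the 0.561 RPKM that 3 reads on 1 kb are worth. Ccl2, Cxcl1, Cxcl5 and both transcripts of Lif were listed at 0 RPKM, as were 30.1% of all transcripts, and at this depth a low level was not detectable. Cxcl1 and Cxcl5 belong to a run of 7 CXC genes on chromosome 5, of which 0 had a culture row and 5 were listed at 0 in the tissue. Of all genes, 11144 had a culture row and 22463 a tissue value.

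Tissue and day 7 culture were compared by rank, since RPKM by transcript and FPKM by gene differ in scale. Ranks were taken within each library over 10464 genes with at least 1 in either, using the highest transcript of a gene, and a gap of 25 percentile points counted as different. Of 4 compared members 3 ranked lower in the tissue and 0 higher, where 10.7% of compared genes were lower by that rule and 10.7% higher, 21.3% in all. Ccl2 and Ccl7 were below 1 RPKM in tissue and entered only through their culture values. They could hardly rank higher in tissue, so the count is partly set by the filter. Csf1 was at the 19.3rd percentile in tissue and at the 76.5th in day 7 culture, with 1.42 RPKM in tissue and 33.3 FPKM in culture. Ccl2 was listed at 0 RPKM in tissue, sharing the 0.922nd percentile with the other genes at 0, and stood at the 54.2nd percentile in day 7 culture. Ccl7 was at the 5.09th percentile in tissue and the 37.0th in culture. Cxcl12 was at the 78.3rd percentile in tissue and the 89.1st in culture, a difference of -10.8 points that is inside the rule. Il6, at 0.172 RPKM in tissue and 0.145 FPKM in culture, and Lif, at 0 and 0.203, were below 1 in both and were not compared.

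**Figure D4:**
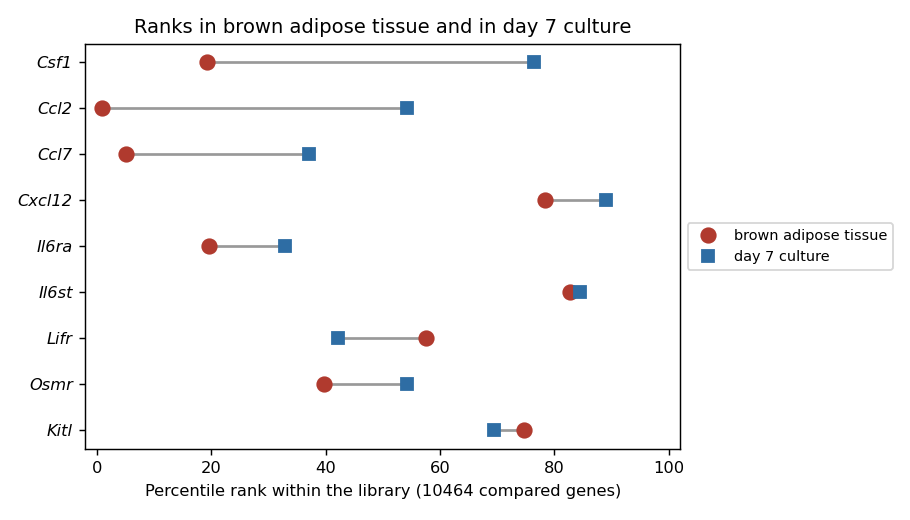
Symbols give the percentile rank (horizontal axis) of each gene (rows) within the tissue library (circles) and the day 7 culture library (squares), 1 library each, over 10464 compared genes. Csf1, Ccl2 and Ccl7 rank at least 25 points lower in the tissue, while Cxcl12, Kitl and the receptor genes shown (Il6ra, Il6st, Lifr and Osmr) differ by less.

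The receptors of the members could be read in the tissue, although 1 of 23 chemokine receptor genes had a culture row (Ccr10, at 0.359, 0.751, 0.814 and 2.49 FPKM on days -3, 0, 2 and 7). A culture row was held by 11144 genes, and a tissue value by 22463. Ackr3, the scavenging receptor of CXCL12, was at 11.0 RPKM, the highest value of the receptor list, while Cxcr4 was at 0.309 RPKM. The 0.561 RPKM of 3 reads holds for 1 kb and is lower for longer transcripts. The length of Cxcr4 was not used, so whether it reached 3 reads was not judged. Ccr2, the receptor of CCL2 and CCL7, was at 1.25 RPKM, Ccr1 at 0.198, Cxcr2 at 0.184 and Csf1r at 2.17. Il6st was at 17.4 RPKM in tissue and 45.7 FPKM in day 7 culture, with a rank difference of -1.78 points. Il6ra was at 1.45 RPKM in tissue and 8.54 FPKM in culture, Lifr at 6.48 and 11.7, and Osmr at 3.63 and 16.6, with rank differences of -13.4, 15.3 and -14.5 points. Cntfr, the CNTF receptor, ranked higher in the tissue, past the rule, at 3.78 RPKM in tissue and 0.475 FPKM in culture, a rank difference of 40.3 points. It entered only through its tissue value and could hardly rank lower there, so this call is partly set by the filter. Kit, the receptor of stem cell factor, was at 5.36 RPKM in tissue and 1.72 FPKM in culture, 45.5 points higher in rank. Kitl was at 11.9 RPKM in tissue and 26.0 FPKM in culture, and Il34 at 0.978 and 0.686. Socs3, which STAT3 signaling induces, had a rank difference of -27.03 points, past the rule, at 0.755 RPKM against 10.4 FPKM in culture. Below 1 RPKM in tissue, Socs3 entered only through culture and could hardly pass the rule as higher in tissue.

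The tissue held RNA of cells that the culture should lack. All 5 endothelial markers were above 1 RPKM in the tissue, with a sum of 134 RPKM. Kdr, the single one with a culture row, was at 28.4 RPKM in tissue and 0.0668 FPKM in day 7 culture. Of 11 leukocyte markers with a tissue value 7 were at least at 1 RPKM and Cd3e was at 0, with a sum of 82.9 RPKM. Most of that sum was Cd74 at 52.7 RPKM and Lyz2 at 19.6 RPKM, while Ptprc was at 1.25. The 5 with a culture row summed to 8.21 FPKM at day 7, of which Cd74 was 2.29. These sums cover different genes, since Lyz2 had no culture row and Cd68 no tissue value. The part of these cells in the tissue values of the members was not tested.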

How the data were processed

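Culture FPKM were deposited by the authors by gene symbol, and tissue RPKM were deposited by RefSeq transcript. For the culture libraries, TopHat2 2.0.10, Cufflinks 1.0.3, CASAVA 1.8.2 and SICER are named, per the submitters' processing notes, and for the tissue CASAVA 1.8.2, all without a stated role; the notes name build mm9. Libraries were made from purified mRNA, per the labels' protocols. Of 83 samples, 5 were used and 78 were not analysed here.

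Values were used as deposited, with a pseudocount of 1, in Python 3.11.15 with pandas 2.3.3, numpy 2.4.6 and matplotlib 3.10.9. The 2-fold rule was applied to all 11144 genes. A simulation with changes and noise of set size checked only that the rule runs as written. It does not measure noise between libraries, which is unknown here. Culture depth was sought in the low values: at most 4.65% of genes below 0.3 FPKM in a pair of libraries shared 1 ratio, so none was recovered. Tissue depth came from 31 chemosensory receptor transcripts that were all whole reads within 0.02 of a read, using gene lengths of GRCm38.p6, and covers counting error only. Accessions gave 1 symbol for 97.8% of tissue transcripts. Promoters are RefSeq sequences of GRCm38.p6.

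The members and the gene lists were chosen with earlier results of these data known. Named were all members; for each list, genes pairing with a member and the 4 with the largest differences; and the 3 genes nearest to a member. Other genes named (Ccl17, Cx3cl1, Cntf, Cntfr, Itgam and Cd68 among them) were chosen after their values were seen. Some genes of these lists are not reported here. The alternatives were pseudocounts of 0.1 and 5, no filter, rescaling to a common total, median-ratio size factors, a 3-fold rule, transcript sums and a log2 ratio.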

Additional observations from a re-analysis of the deposited data

How the results depend on the processing

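Of 48 recomputed member counts 43 stayed within 1.5 times the reported count. With a pseudocount of 0.1, 2 members were lower at day 0 against day -3, Il6 being added. With a common total of FPKM, 2 were lower at day 7 against day 2, Ccl7 being added at -1.02. A 3-fold rule left 0 higher at day 0 against day -3, 1 lower at day 2 against day 0 and 2 lower at day 7 against day -3. Of 96 recomputed member differences 88 kept their side of the 2-fold rule, and the other 8 concern Il6, Lif and Ccl7; 1 tiny difference changed sign (Lif, day 7 against day 2, 0.01 as deposited and -0.003 at a common total). The common total moved the median of all genes by 0.22 at day 0 against day -3 and by 0.14 at day 7 against day -3, and of the genes past the rule it put 82.3% higher at day 0 against day -3, against 67.6% as deposited. Of 312 recomputed list counts 245 stayed within 1.5 times, most lists holding few genes. Summing the tissue transcripts, which counts shared reads more than once, put Cxcl12 0.64 points higher in tissue; the other 6 tissue values kept direction and call. Depth limits Il6, Lif and the tissue values near 0. No paired analysis was possible because each group had 1 library.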
